A study of Capra hircus with 3 samples.

Results

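SPINK5, KLK10 and LYPD2 are 3 of the 16739 genes measured in single cells of fetal goat dorsal skin, and they were chosen by name because their whole-library levels were far higher at E90 than at E60, with log2 ratios of CPM + 1 (counts per 1000000 UMIs) of 8.41, 7.43 and 7.15. They are not the only genes with such ratios: DSP, a plaque protein of desmosomes, lay between them at 7.69. That choice used measured values, so the difference between E60 and E90 is given here as a description only. SPINK5 encodes LEKTI, a secreted inhibitor with many Kazal-type domains whose fragments hold back the serine proteases KLK5, KLK7 and KLK14 in the upper epidermis. Loss of SPINK5 in people causes Netherton syndrome, in which the stratum corneum is shed too early. KLK10 encodes a secreted member of the same kallikrein protease family. LYPD2 encodes a small protein of the LY6 and PLAUR family, many of whose members are anchored to the cell membrane by a lipid.

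The skin came from fetuses of the Northern Shaanxi White Cashmere goat (Capra hircus) without any genetic change or treatment in the labels, at E60, E90 and E120 of gestation, with 1 library per stage. Cells of at least 2 fetuses were pooled before barcoding, so no library can be split by animal. Whole skin was dissociated with collagenase IV and pipetting at E60 and E90, whereas at E120 hair follicles were picked out by forceps and dissociated with TypLE Express, so stage and dissociation cannot be told apart in any value that sets E120 beside E90. With 1 library per stage there is no replicate spread, no test was made, and every interval below is an exact 95% interval that covers counting error only.

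The libraries held 6849, 6931 and 6896 cells at E60, E90 and E120, 20676 in all, beside 19705 in the study's design text. Median depths were 8579, 3714 and 13064 UMIs per cell, and median mitochondrial shares were 4.52%, 11.1% and 5.26%. From marker genes, 3, 2015 and 3397 cells fell in epithelial-like clusters, and 60.1%, 58.5% and 39.6% of cells stayed in clusters without a name. The largest unnamed cluster held 3958 E90 cells and was led by ACTG2 and mitochondrial genes. Libraries shared 9 to 13 cell barcodes by pairs. Over the whole E60 library KRT1 and KRT14, defining keratins of skin epithelium, gave 0 UMIs and KRT10 gave 1.61 CPM, whereas at E90 KRT1 was 495 CPM even in dermal-like cells.

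At E60 neither SPINK5 nor LYPD2 gave a single UMI among 65049552, and KLK10 gave 11 UMIs, or 0.169 CPM. At E90 the whole-library levels were 339 CPM for SPINK5, 201 CPM for KLK10 and 141 CPM for LYPD2, which chose the genes. At E120 they were 101 CPM, 154 CPM and 0.353 CPM, the last from 33 UMIs. Taking 0 counts as a floor of 3 counts, SPINK5 was at least 7346-fold higher and LYPD2 at least 3064-fold higher at E90 than at E60. All 3 genes were past a 2-fold difference, which their choice had fixed in advance, and all 3 reached 10 CPM only through E90. Of the 6278 genes that reached 10 CPM in either library, 21.3% were at least 2-fold higher at E90 and 8.08% were lower by as much. With 3 epithelial-like cells at E60, fewer epithelial cells and less RNA per cell cannot be told apart in that difference.

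In the E90 library all 3 genes were highest in the same cells, a cluster of 332 suprabasal-like cells led by LYPD2, KRT4, KRT10, SERPINA12, CRBP2 and KRT1. KRT1 and KRT10 are the keratins that keratinocytes switch on when they leave the basal layer, and KRT4 is a keratin of layered mucosal and embryonic surface epithelia. The name comes from the suprabasal marker list, which holds KRT1 and KRT10. KRT4 and CLDN4, which was also higher in this cluster, were instead on the marker list for periderm or superficial epithelium. KRT7, from that same list, was among the leading genes of another E90 cluster. SPINK5 reached 2219 CPM there (interval 2146 to 2294), KLK10 reached 880 CPM (835 to 928) and LYPD2 reached 1280 CPM (1225 to 1338). The cluster was 4.79% of the library's cells and held 34.1% of its SPINK5 UMIs, 22.8% of its KLK10 UMIs and 47.2% of its LYPD2 UMIs. More of the SPINK5 and KLK10 UMIs, 39.7% and 40.1%, were in the largest unnamed cluster, which was 57.1% of the library's cells. It held 37.2% of the LYPD2 UMIs, and its levels were lower, at 262 CPM of SPINK5, 157 of KLK10 and 102 of LYPD2. The 3 genes and their families had been kept out of the genes used for clustering, but their RNA comes from the cells that were clustered, so these levels are descriptions.

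Single cells of the suprabasal-like cluster carried the inhibitor almost without exception. A SPINK5 UMI was found in 99.1% of them, a KLK10 UMI in 86.1% and a LYPD2 UMI in 88.3%. With every cell reduced at random to 2000 UMIs (thinned; no cell was shallower) the shares were 95.5%, 69.0% and 74.1%. The median cell held 1798 CPM of SPINK5, with 629 CPM and 3405 CPM at the 10th and 90th percentiles. For KLK10 the median cell held 619 CPM and the 10th percentile was 0. The 34 cells with the most UMIs of each gene held 35.5% of the SPINK5 UMIs, 41.9% of the KLK10 UMIs and 43.5% of the LYPD2 UMIs.

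The levels in classes other than epithelial-like were not low at E90. Across the 5 other classes with at least 50 cells, SPINK5 ran from 93.2 CPM in dermal-like cells to 209 CPM in mast-like cells, KLK10 from 50.4 to 172 CPM and LYPD2 from 26.2 to 74.1 CPM, with the same classes at both ends. In thinned dermal-like cells 17.7% had a SPINK5 UMI, 8.85% a KLK10 UMI and 4.62% a LYPD2 UMI, at a median depth before thinning of 5555 UMIs against 4067 in the suprabasal-like cluster. The summed suprabasal keratinocyte markers were also present in dermal-like cells, at 1000 CPM against 24970 CPM in the suprabasal-like cluster, with 0 of 9 markers at 0 counts. The levels in these other classes are used below as a comparison level, called background. Whether this RNA came from the cells themselves was not tested.

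**Figure D1:**
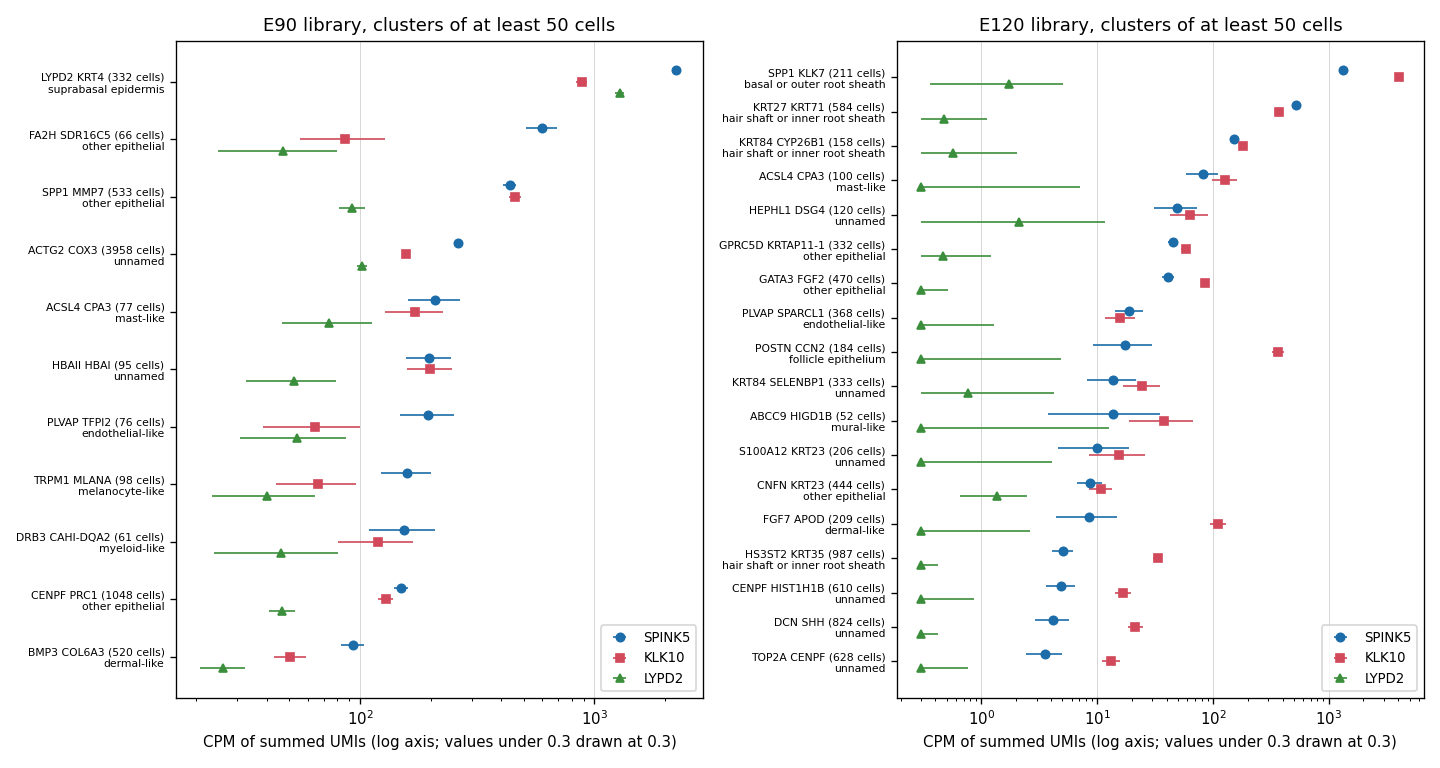
CPM of SPINK5 (circles), KLK10 (squares) and LYPD2 (triangles) in each cluster of at least 50 cells, on a log axis, with E90 on the left and E120 on the right; each cluster is named by 2 leading genes and its class, and bars are exact 95% Poisson intervals of the summed UMIs. At E90 the suprabasal-like cluster tops all 3 genes, and at E120 the SPP1 and KLK7 cluster tops SPINK5 and KLK10 while LYPD2 stays near 0 in every cluster.

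Against that background, SPINK5 stood above the upper bound of every other class in 3 of the 6 epithelial-like or unnamed E90 clusters of at least 50 cells, KLK10 in 2 and LYPD2 in 1. For SPINK5 the order was the suprabasal-like cluster, then 66 cells led by FA2H and SDR16C5 at 597 CPM (509 to 695), then 533 cells led by SPP1, MMP7, KRT7 and AREG at 434 CPM (409 to 461), with no overlap of intervals between neighbours. FA2H makes hydroxylated fatty acids for skin lipids. For KLK10 the suprabasal-like cluster was followed by the SPP1 and MMP7 cluster at 458 CPM (433 to 485). The next cluster, led by haemoglobin genes and unnamed, had 199 CPM (159 to 247), and its interval overlapped that of mast-like cells.

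Outside the suprabasal-like cluster LYPD2 was not above the level of other classes: the large unnamed cluster had 102 CPM, the SPP1 and MMP7 cluster 92.6 CPM and mast-like cells 74.1 CPM, with overlapping intervals. Cycling epithelial-like cells, 1048 cells led by CENPF and PRC1 with SEMA3E among their leading genes, had 150 CPM of SPINK5, 129 CPM of KLK10 and 46.6 CPM of LYPD2, each inside the range of the other classes. Beside the rest of the epithelial-like cells, the SPP1 and MMP7 cluster had LYPD2 lower by at least 2-fold (92.6 against 319 CPM), as were 2.26% of 6296 genes (2.83% were higher), while SPINK5 and KLK10 were within 2-fold. Inhibitor and protease did not share the whole order. The FA2H cluster was second for SPINK5, but its KLK10 level of 86.3 CPM (55.3 to 128) lay within the background range. With cells of under 1000 genes or over 10% mitochondrial UMIs left out, the best match of the FA2H cluster was 1 cell, so its place in the order was not seen under that filter. The other 5 alternative clusterings gave its match 596 to 643 CPM of SPINK5 and 86.3 to 89.6 CPM of KLK10.

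The ratio of the members' UMIs differed between these clusters beyond counting error. KLK10 had 0.397 UMIs per SPINK5 UMI in the suprabasal-like cluster (0.373 to 0.422), 1.06 in the SPP1 and MMP7 cluster (0.972 to 1.15) and 0.145 in the FA2H cluster (0.0901 to 0.223). The same ratio was 0.541 in dermal-like cells (0.443 to 0.659), close to 0.593 over all E90 cells. Among the other classes it was 0.353 in endothelial-like cells (0.212 to 0.569) and 0.418 in melanocyte-like cells (0.259 to 0.659). Myeloid-like cells had 0.775 (0.469 to 1.27) and mast-like cells 0.823 (0.557 to 1.21). LYPD2 had 0.577 UMIs per SPINK5 UMI in the suprabasal-like cluster (0.546 to 0.610), 0.213 in the SPP1 and MMP7 cluster and 0.281 in dermal-like cells. Beside the SPP1 and MMP7 cluster, the suprabasal-like cluster was thus rich in the inhibitor relative to the protease and in LYPD2 relative to the inhibitor. Its KLK10 per SPINK5 ratio lay inside the endothelial-like and melanocyte-like intervals, so that ratio was not particular to it. The SPP1 and MMP7 cluster, with a ratio inside the mast-like and myeloid-like intervals, held about as many KLK10 as SPINK5 UMIs in this clustering. Its best match had 573 CPM of KLK10 and 359 of SPINK5 at Leiden resolution 0.5, 368 and 471 at resolution 2, 650 and 1517 with families among the variable genes, and 618 and 1322 with genes centred within libraries. In the last 2 the match was also the best match of the suprabasal-like cluster. This ratio therefore depends on the clustering.

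Within the 2015 epithelial-like cells of E90, suprabasal-like cells were set beside the other 1683. SPINK5 was 8.74-fold higher (2219 against 254 CPM, log2 ratio of CPM + 1 of 3.12), KLK10 3.83-fold higher (880 against 230 CPM, 1.93) and LYPD2 21.1-fold higher (1280 against 60.6 CPM, 4.38). The 3 of 3 members were past 2-fold, beside 4.13% of the 6296 genes that reached 10 CPM in either group, with 7.85% lower by 2-fold and a median log2 ratio of -0.24. When each cell was instead named from its own marker counts, the log2 ratios were 1.49, 0.45 and 0.68, so that KLK10 and LYPD2 were under 2-fold.

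To see how the genes run through the epithelium, the 2015 cells were placed in 5 bins of 403 by the share of suprabasal marker UMIs in suprabasal plus basal marker UMIs, which is a range and not a cell type. From the basal end, SPINK5 was 96.4, 168, 250, 473 and 2029 CPM. KLK10 was 199, 201, 206, 320 and 794 CPM over the same bins. LYPD2 was 33.7, 39.1, 59.5, 120 and 1100 CPM.

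**Figure D2:**
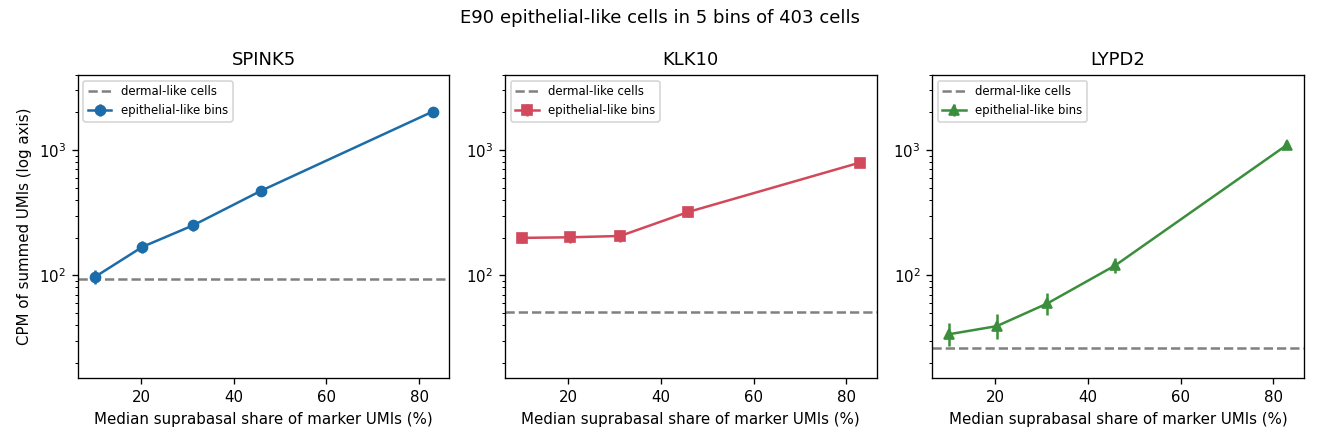
CPM (log axis) of each gene in 5 bins of 403 E90 epithelial-like cells against the bin's median suprabasal share of marker UMIs in percent; points are bins with exact 95% Poisson intervals and the dashed line is the level in dermal-like cells. At the basal end SPINK5 (96.4 CPM) and LYPD2 (33.7 CPM) overlap the dermal-like levels (93.2 and 26.2 CPM) in their intervals, while KLK10 (199 CPM) lies above its own (50.4 CPM).

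The basal end separated the protease from the other genes only beside dermal-like cells, which were the lowest of the 5 other classes for all 3 genes. SPINK5 in the first bin, 96.4 CPM (84.7 to 109), overlapped the 93.2 CPM of dermal-like cells, and its thinned share of cells, 20.1%, was close to their 17.7%. KLK10 in the same bin, 199 CPM (182 to 217), was above the 50.4 CPM of dermal-like cells, with 29.0% of thinned cells against 8.85%, although it overlapped the 172 CPM of the 77 mast-like cells (128 to 226). LYPD2 there was 33.7 CPM (26.9 to 41.7), which overlapped the dermal-like interval. The middle bins are harder to read, because the suprabasal share of marker UMIs summed over dermal-like cells was 44.9% and over endothelial-like cells also 44.9%, above the median of the third bin (31.2%) and near that of the next (45.9%).

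Inhibitor and protease were then counted in the same thinned cells. In the suprabasal-like cluster 221 of 229 KLK10-positive cells had a SPINK5 UMI (96.5%, interval 93.2 to 98.5), and so did 93.2% of the KLK10-negative cells (86.5 to 97.2), so the inhibitor was present whether or not the protease was seen. Without thinning, 99.7% of the cluster's KLK10 UMIs were in cells with a SPINK5 UMI. LYPD2 and KLK10 were more often together: 79.9% of KLK10-positive cells had LYPD2 (74.1 to 84.9) against 61.2% of KLK10-negative cells (51.1 to 70.6). SPINK5 was in 57.8% of the KLK10-positive cells of the SPP1 and MMP7 cluster (51.2 to 64.2) and in 41.9% of its KLK10-negative cells (36.2 to 47.7). In dermal-like cells the same shares, 23.9% and 17.1%, had overlapping intervals.

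The picture at E120, where follicles and not whole skin were sampled, was different for each gene. None of the 3397 epithelial-like cells of E120 fell in a cluster named suprabasal-like. Over all epithelial-like cells SPINK5 was 160 CPM against 574 CPM at E90 (log2 ratio -1.84), KLK10 237 against 336 CPM (-0.50) and LYPD2 0.456 against 259 CPM (-7.48). At least 2-fold lower were 2 of the 3 members, beside 31.7% of 6288 genes, and 8.83% were at least 2-fold higher. Of the 2 lower members, LYPD2 reached 10 CPM only through E90, so the count is a description. The median gene was at -0.48, so KLK10 lay at about the median gene, and scaling by the median of ratios put its log2 ratio at 0.00 and that of SPINK5 at -1.34. LYPD2 had at most 10 UMIs in any E120 cluster and no cluster above the other classes.

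Across the 4 other classes of E120 with at least 50 cells, SPINK5 ran from 9.79 CPM in dermal-like cells to 81.3 CPM in mast-like cells, and KLK10 from 15.9 CPM in endothelial-like cells to 128 CPM in mast-like cells. In dermal-like cells KLK10 was 110 CPM at E120 (19.5% of thinned cells), above its 50.4 CPM at E90, while SPINK5 was lower. Endothelial-like cells, at a median depth of 6421 UMIs, had 19.0 CPM of SPINK5, with 1.90% of thinned cells positive for SPINK5 and 2.45% for KLK10. Their 55 SPINK5 UMIs came from 15 of 368 cells, with 26 in 1 cell, and 7.07% of these 368 cells were called doublets. Above the upper bound of every other class stood 3 of 14 epithelial-like or unnamed clusters for SPINK5 and 4 for KLK10. The highest bound, that of the 100 mast-like cells, rests on few cells. A single cell held 27 of their 42 SPINK5 UMIs and 41 of their 66 KLK10 UMIs were also in 1 cell. For SPINK5 that bound was 110 CPM and the next was 30.7 CPM, in mural-like cells. Clusters led by HEPHL1 (48.6 CPM), GPRC5D (45.5 CPM) and GATA3 (41.2 CPM) lay between these bounds. The shared 3 were 211 cells led by SPP1 and KLK7, 584 cells led by KRT27 and KRT71, and 158 cells led by KRT84 and CYP26B1. The 4th for KLK10 was a cluster of 184 cells led by POSTN and CCN2.

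The SPP1 and KLK7 cluster was named basal epidermis or outer root sheath from KRT14, KRT17 and other markers, with KRT10 also among its leading genes. SPINK5 was 1339 CPM there (1285 to 1395) and KLK10 4029 CPM (3935 to 4125), and 3.06% of the library's cells held 24.5% of its SPINK5 UMIs and 48.3% of its KLK10 UMIs. These UMIs sat in few cells: 22 of the 211 held 83.6% of the SPINK5 UMIs and another 22, 16 of them the same cells, held 86.3% of the KLK10 UMIs. A single cell held 1236 KLK10 UMIs, and the level without it was 3341 CPM. Without the 22 cells richest in KLK10, KLK10 was 684 CPM and SPINK5 369 CPM. None of the 211 cells was called a doublet, by a caller that marked 28.7% of the doublets simulated from this library.

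Along the suprabasal share of that cluster, in 5 bins of 42 or 43 cells, SPINK5 was 80.9, 295, 508, 1236 and 3853 CPM. KLK10 was 312, 439, 872, 11336 and 5662 CPM. SPINK5 was highest at the suprabasal end. The KLK10 level was highest in the bin before it, from 4110 UMIs in 42 cells of a cluster where single cells held 1236 and 881 UMIs, whereas the thinned share of cells with KLK10 was highest at the suprabasal end (90.5% against 71.4%, with overlapping intervals). In thinned cells 46.7% of KLK10-positive cells had SPINK5 (37.5 to 56.0) against 8.79% of KLK10-negative cells (3.87 to 16.6), so here the genes went together.

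The KRT27 and KRT71 cluster, whose keratins belong to the inner root sheath that moulds the growing hair, held 57.6% of the library's SPINK5 UMIs and 27.0% of its KLK10 UMIs. SPINK5 was 517 CPM (504 to 531) with a UMI in 81.3% of cells, and KLK10 was 370 CPM (358 to 382) in 83.6%. After thinning the shares were 47.3% and 39.6%. SPINK5 was in 56.7% of KLK10-positive thinned cells (50.1 to 63.2) and 41.1% of KLK10-negative ones (35.9 to 46.4). Beside other epithelial-like cells, SPINK5 was at least 2-fold higher there (517 against 79.5 CPM, log2 ratio 2.69) and KLK10 was not (370 against 207 CPM, 0.83), where 4.17% of 4916 genes were at least 2-fold higher and 10.4% lower. In the KRT84 and CYP26B1 cluster SPINK5 was 153 CPM and KLK10 182 CPM.

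In the POSTN and CCN2 cluster the protease was present without the inhibitor. It was named follicle epithelium from markers that include SEMA3E and SOX9. KLK10 was 365 CPM (323 to 410), with a UMI in 56.5% of cells, while SPINK5 was 17.2 CPM (9.18 to 29.5) in 5.43% of cells. Its level lay inside the interval of endothelial-like cells, where 1 cell held 26 of the 55 SPINK5 UMIs. Of 76 thinned KLK10-positive cells, 2 had a SPINK5 UMI (2.63%, interval 0.320 to 9.18). KLK10 had 21.2 UMIs per SPINK5 UMI (12.2 to 40.2), against 3.01 in the SPP1 and KLK7 cluster, 0.715 in the KRT27 cluster and 0.836 in endothelial-like cells. SPINK5 was at least 2-fold lower there than in other epithelial-like cells, as were 12% of 5892 genes, and 27.4% were higher. Basal keratinocyte markers summed to 13121 CPM and suprabasal ones to 369 CPM. Under 5 of 6 other clusterings these cells fell into 1 cluster with the SPP1 and KLK7 cells, so the separation depends on the clustering.

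**Figure D3:**
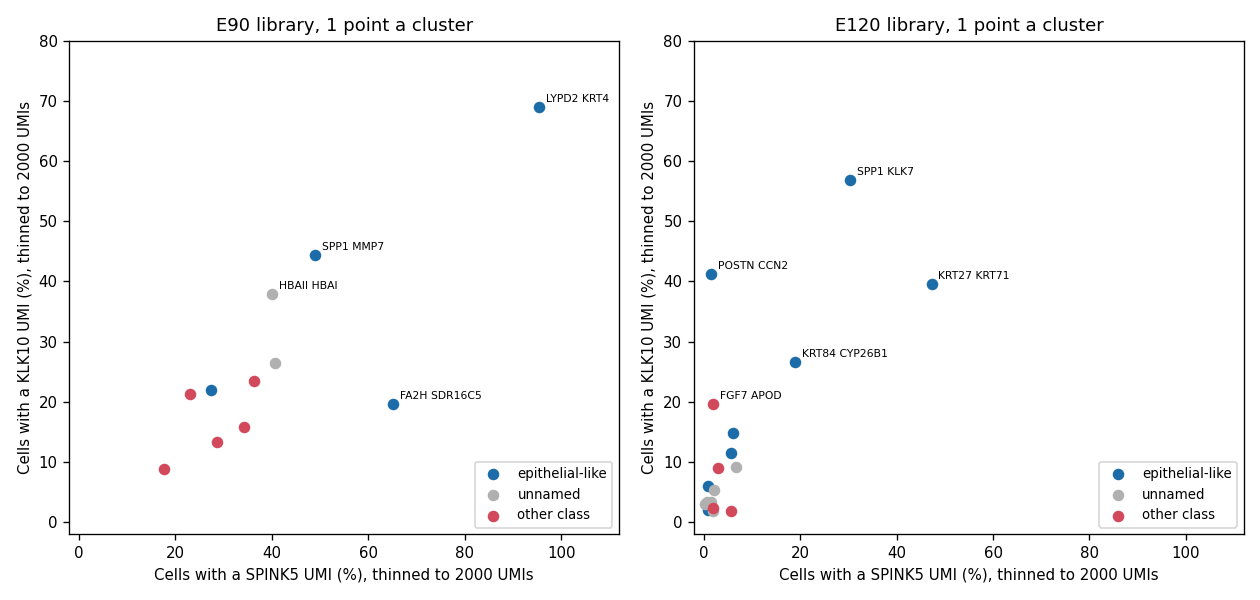
Percent of cells with a SPINK5 UMI against percent with a KLK10 UMI after thinning to 2000 UMIs, 1 point per cluster of at least 50 cells, in E90 (left) and E120 (right), coloured by kind of cluster. At E90 the suprabasal-like cluster lies at 95.5% and 69.0%, and at E120 the POSTN and CCN2 cluster lies at 1.63% for SPINK5 and 41.3% for KLK10.

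Other kallikreins were counted from a list of 12, and 10 of these had a row. In the E90 suprabasal-like cluster 2 had at least 10 CPM in the higher group and neither differed by 2-fold from the other epithelial-like cells: KLK12 was 131 against 81.3 CPM and KLK7 15.2 against 16.8 CPM. Of all 6296 genes tested, 4.13% were at least 2-fold higher and 7.85% lower, so this count is no result about kallikreins. KLK5 gave 0 UMIs and KLK14 2.54 CPM there. Of the kallikreins that LEKTI is known to inhibit, only KLK7 thus reached 10 CPM in this comparison. KLK5 and KLK14 were too low to be compared. In dermal-like cells KLK7 was 8.30 CPM. In the SPP1 and MMP7 cluster of E90 KLK7 was 32.3 CPM, against 10.8 CPM in other epithelial-like cells. KLK14 was 12.5 against 2.25 CPM and KLK6 12.5 against 4.22 CPM, and both reached 10 CPM only through that cluster. KLK6 was named after its values were seen.

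In the SPP1 and KLK7 cluster of E120, SPINK5 and KLK10 were both at least 2-fold higher than in other epithelial-like cells, beside 20.1% of 5513 genes, and 8.72% were lower. Of the 6 listed kallikreins tested there, 5 reached 10 CPM only through this cluster, so no count is drawn from them. KLK7, a chymotrypsin-like enzyme that cleaves corneodesmosomes and that leads the cluster, was 1703 against 2.55 CPM. KLK12, which reached 10 CPM on both sides, was 494 against 34.6 CPM. KLK5 was 74.4 against 0.235 CPM, KLK8 32.5 against 0.289 CPM and KLK14 16.8 against 1.65 CPM. KLK6, again named after its values were seen, was 594 against 2.79 CPM. In the POSTN cluster KLK12 was 423 CPM and KLK7 38.5 CPM. In the KRT27 cluster, where most SPINK5 UMIs were, KLK12 was 94.0 CPM, KLK7 5.43 CPM and KLK5 0.191 CPM.

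**Figure D4:**
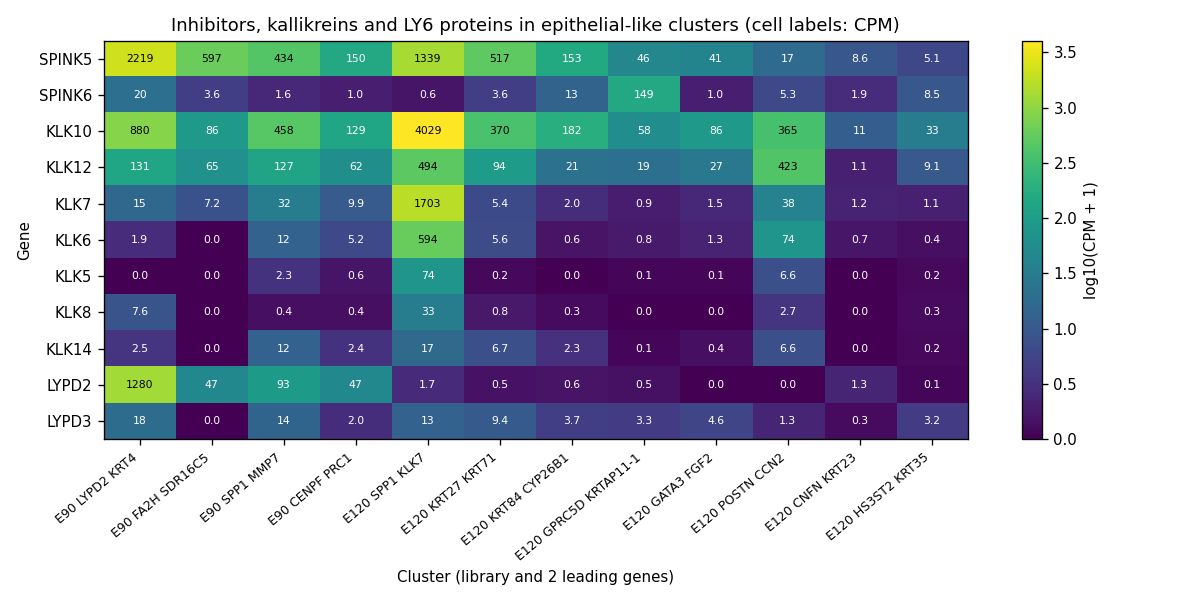
CPM of SPINK5, SPINK6, 7 kallikreins, LYPD2 and LYPD3 (rows) in epithelial-like clusters of at least 50 cells (columns, named by library and 2 leading genes), coloured by log10 of CPM + 1 with the CPM printed in each cell. KLK7 reaches 1703 CPM in the E120 SPP1 and KLK7 cluster and 15.2 CPM in the E90 suprabasal-like cluster, where SPINK5 is 2219 CPM.

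Of 9 listed serine protease and related inhibitors with at least 10 CPM, 3 were at least 2-fold higher in E90 suprabasal-like cells and 1 was lower, beside 4.13% and 7.85% of all genes tested. SPINK6 and SERPINA12 reached 10 CPM only through that cluster, and WFDC2, the lower one, only outside it. SERPINA12, an inhibitor also known as vaspin, was 219 against 8.14 CPM, SERPINB5 92.6 against 32.2 CPM, and SPINK6, a Kazal inhibitor of kallikreins, 19.7 against 1.23 CPM. None of the named inhibitors reached the 2219 CPM of SPINK5 in that cluster. CST6, an inhibitor of cysteine proteases, was 66.6 against 106 CPM. At E120 SPINK6 sat apart from SPINK5: it was 149 CPM in the cluster led by GPRC5D and 0.581 CPM in the SPP1 and KLK7 cluster, where CST6 was 16265 CPM, above the 1339 CPM of SPINK5.

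Among relatives of LYPD2, 3 of 5 with at least 10 CPM were at least 2-fold higher in the E90 suprabasal-like cluster and 1, LYPD1, was lower, beside 4.13% and 7.85% of all genes tested. LYPD3 and LYPD6 reached 10 CPM only through that cluster and LYPD1 only outside it, so the counts are no support. LYPD6B was 48.2 against 22.8 CPM, LYPD3 17.8 against 5.55 CPM and LYPD6 15.9 against 3.33 CPM, so LYPD2 at 1280 CPM was by counts far above its measured relatives, on a scale that is not divided by transcript length. SLURP1 was not among the symbols matched. At E120 LYPD2 was near 0 while LYPD3 was 12.8 CPM in the SPP1 and KLK7 cluster and 9.44 CPM in the KRT27 cluster.

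Lists of barrier genes differed in the same E90 cells. They share markers with the class name, so their counts are descriptions, beside 4.13% of all genes at least 2-fold higher and 7.85% lower. Of 7 cornified envelope genes 6 were at least 2-fold higher and none lower, 1 of the 6 having reached 10 CPM only through the cluster, with SBSN, a secreted keratinocyte protein, at 3629 against 502 CPM and KRTDAP at 986 against 151 CPM. Of 8 barrier lipid genes 5 were higher, but 4 of these reached 10 CPM only through the cluster; the other was CERS3, a ceramide synthase, at 69.1 against 19.7 CPM. Of 9 desmosome genes 2 were higher: DSC1 was 358 against 90.3 CPM, while DSP (1261 against 650 CPM) and DSG1 (673 against 425 CPM) stayed under 2-fold. Tight junction genes had 1 of 5 higher, CLDN4, at 121 against 29.0 CPM. Proteases of the activating cascade had 1 of 5 higher, PRSS27, which reached 10 CPM only there, and ST14, which encodes matriptase, was 19.7 against 20.6 CPM. Of 8 transcription factors 1 was higher, GRHL3, which also reached 10 CPM only there, and KLF4 was 1025 against 783 CPM.

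The genes whose levels over 41 clusters were most like each member were named from 4177 genes by Pearson correlation of log2(CPM + 1), a description over clusters that share libraries and depth. For SPINK5 they were SBSN (r = 0.96), KRT80 (0.96), AREG (0.94), CLDN4 (0.93) and DSC1 (0.93). For KLK10 they were DSG1 (0.95), MAB21L4 (0.93), SPINK5 (0.92), KLK12 (0.92) and SBSN (0.92). For LYPD2 they were KRT4 (0.97), CRBP2 (0.96), KRT10 (0.92), BBOX1 (0.91) and CFTR (0.91). Over the 11 E90 clusters SPINK5 went with HEBP2, KRTDAP, HSPB1, CD82 and S100A11 (0.96 to 0.93), KLK10 with DSC1, SBSN, SFN, KLC3 and KLF5 (0.94 to 0.93), and LYPD2 with KRT4, KRT10, KRT1, SBSN and CRBP2 (0.99 to 0.94). SPINK5 and KLK10 correlated at 0.92 over the 41 clusters and at 0.77 over the 11 of E90.

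By gene order in the RefSeq list of assembly ARS1.2, KLK10 lies between KLK9 and KLK11 in a run of kallikrein genes, and LYPD2 lies beside LYNX1, near LY6D and LY6K. KLK12, among the genes most like KLK10 over clusters, is in the same kallikrein run. The SPINK5 symbol was not matched in that list.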

How the data were processed

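Droplet 3′ single-cell RNA-seq of dorsal skin gave 1 library per stage. Per the submitters' processing notes, Cell Ranger 3.0.2 was used; the genome build and filters are not given in the sources used here. The values the authors deposited are natural log values of 1 plus UMIs scaled to 10000 per cell, as the values show. UMI counts were recovered from them (100% of nonzero values whole within 0.01), although counts had been assumed in the plan. The members, lists and tests were chosen with earlier results of these data known, and clustering used all 20676 cells.

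From 2000 variable genes without the members and their families (51 genes), 30 components, 20 neighbours and Leiden resolution 1 (Python 3.11.15 with scipy 1.17.1, numpy 2.4.6, igraph 0.11.9 and leidenalg 0.10.2) gave 43 clusters. A cluster was named with at least 3 markers, each in at least 10% of its cells. Each marker also needed at least 2 times its CPM in the other cells of the cluster's main library. How markers were scored was set with the data known. Doublets were called with a script of Scrublet's algorithm: 4.20% of E60, 0 cells of E90 and 1.77% of E120, so the caller did not work at E90, and none were removed.

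UMIs were summed and given as CPM, with exact Poisson and Clopper-Pearson intervals at 95%. Ratios are log2 of CPM + 1, in genes that reach 10 CPM in either group. Called means at least 2-fold. Shares were thinned to 2000 UMIs. Named are the 3 members, the 5 genes most like each, up to 3 genes per list with the highest CPM in the cluster highest for SPINK5, and KLK5, KLK7, KLK14, SPINK6, LYPD3 and SLURP1; other names were added after values were seen. Scripts were tested on simulated data. Symbols were used for 12709 genes; the other genes, with Ensembl identifiers, are not named. The alternatives are in the closing section.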

Additional observations from a re-analysis of the deposited data

How the results depend on the processing

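No paired analysis was possible because each stage is 1 library and the replicate number is 1 in each. Of 192 alternative values, 69 stayed within the counting interval, 122 moved outside it and 1 changed sign; these intervals are narrow, since they hold no replicate error. The cause was not tested for any of them.

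For suprabasal-like over other epithelial-like cells of E90, all alternatives kept the direction of all 3 genes. Given as log2 ratios of SPINK5, KLK10 and LYPD2, they were 3.00, 2.27 and 4.58 at Leiden resolution 2, 2.83, 1.31 and 4.18 under a filter on genes (1000 or more) and mitochondrial UMIs (10% or less), 1.49, 0.45 and 0.68 by own markers, 2.72, 1.69 and 3.45 with genes centred within libraries, 2.81, 1.78 and 4.02 with cells weighted the same, and 3.37, 2.18 and 4.63 by median of ratios. Called doublets removed gave 2.80 for SPINK5 and 1.48 for KLK10. No E90 cell was called, so for E90 this setting only re-clustered the cells beside fewer cells of E60 and E120. Resolution 0.5 gave 1.36 for KLK10 and 4.19 for LYPD2, and families among the variable genes gave 2.17 and 4.07. Median of ratios shifted the median gene by -0.25 in this comparison and -0.50 in the next.

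For E120 over E90 epithelial-like cells, the log2 ratios of SPINK5, KLK10 and LYPD2 were -2.32, -0.97 and -8.46 at resolution 0.5, -1.93, -0.60 and -7.80 at resolution 2, and -2.34, -0.97 and -8.00 with doublets removed. KLK10 and LYPD2 were -0.37 and -8.17 under the gene and mitochondrial filter and -0.41 and -6.95 by own markers. Cells weighted the same gave -1.70 for SPINK5 and -0.21 for KLK10. KLK10 changed sign by median of ratios (0.0014), where SPINK5 was -1.34. A pseudocount of 10 CPM gave -4.69 for LYPD2.

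Shares of suprabasal-like cells with SPINK5, KLK10 and LYPD2 were 82.8%, 41.6% and 54.2% thinned to 1000 UMIs, 99.1%, 86.1% and 88.3% not thinned, 84.3%, 41.0% and 53.0% from 2 UMIs, and 58.2%, 33.5% and 26.0% by own markers; SPINK5 was 92.0% under the filter. SPINK5 in KLK10-positive suprabasal-like cells was 80.4%, 99.3%, 83.8% and 70.0% in that order of settings. In other epithelial-like cells it was 27.2%, 60.4% and 25.9% for the first 3, 50.7% under the filter and 50.2% with doublets removed. The highest over the lowest bin, as log2, was 5.05, 2.38 and 5.59 with 10 bins, and 3.79 for SPINK5 with KRT1 and KRT10 against KRT5 and KRT14. Totals without haemoglobin and mitochondrial genes gave 632, 369 and 285 CPM at E90, and 169.9 and 252 CPM of SPINK5 and KLK10 at E120.

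Matched clusters were added after seeing the data. Over 6 other clusterings the best match of the E90 suprabasal-like cluster had 1322 to 2238 CPM of SPINK5, that of the KRT27 cluster 508 to 599 CPM, and that of the SPP1 and KLK7 cluster 901 to 1339 CPM. With families among the variable genes or with centring, the SPP1 and MMP7 cells of E90 joined the suprabasal-like ones. The POSTN match had 17.2 to 949 CPM of SPINK5, since it merged with the SPP1 and KLK7 cells in 5 of 6. Depth limits E90 (median 3714 UMIs) more than E120.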

Other observations

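KLK10 UMIs were also counted in dermal-like cells at E120. Their level overlapped the 128 CPM of mast-like cells (98.8 to 162), so it was within the range of the other classes. In 209 dermal-like cells led by FGF7, APOD, RSPO2 and RSPO3, the last pair being genes of the dermal papilla that instructs the follicle, KLK10 was 111 CPM (93.9 to 129) with a UMI in 38.8% of cells (19.6% thinned). SPINK5 was 8.51 CPM there. KLK10 had 13.0 UMIs per SPINK5 UMI (7.23 to 25.7), against 0.836 in endothelial-like cells (0.553 to 1.26). KLK7 was 174 CPM and KLK5 55.3 CPM in the same cells, and KLK4 was 14.9 CPM. Summed basal keratinocyte markers were 196 CPM and suprabasal ones 90.0 CPM in these cells, against 271 and 138 CPM in endothelial-like cells. Called doublets were 4.78% of these 209 cells and 7.07% of the endothelial-like cells. KLK4 was named after its values were seen.

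In the mast-like cells of E120 KLK10 was 128 CPM, from 66 UMIs in 17 of 100 cells, and 9% of those cells were called doublets. Their part in this value was not tested.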
